A study of Mus musculus with 60 samples.

Results

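Respiratory complex I was followed through 44 genes named for it among the 18088 genes measured in the prefrontal cortex of young mice carrying a changed or an intact Trip12 gene. Members were chosen by symbol alone, as genes named Ndufa, Ndufb, Ndufc, Ndufs or Ndufv with a digit after the prefix, or mt-Nd. They comprised 37 nuclear genes on 15 chromosomes and all 7 complex I genes of the mitochondrial genome. Of 46 rows that met the name, 2 were left out as pseudogenes. Ndufb4c is a processed pseudogene with a mean of 957 normalized counts. Ndufb4 itself had a mean of 319, so reads of Ndufb4 may be split between near-identical copies and its values are uncertain. Ndufb1-ps, the other row, had a mean of 816 and carries a pseudogene name, although RefSeq lists a protein-coding Ndufb1. Ndufa4 and its paralogue Ndufa4l2 met the rule by name, but the Ndufa4 protein is now counted as a subunit of cytochrome c oxidase (complex IV). Counts and means over the 37 nuclear members include both.

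Sequenced RNA came from C57BL/6J mice at postnatal day 25, with 60 libraries in 12 groups of 5. HT mice, labelled heterozygous for Trip12 (an E3 ubiquitin ligase), and WT mice received fluoxetine (a selective serotonin reuptake inhibitor), lithium (a mood stabiliser) or vehicle. Treatment reached the pups through the dam's milk on postnatal days 3 to 24, and each combination of genotype and treatment was sampled in males and females. The labels describe neither the Trip12 allele nor the drug dose, and they name no animal, dam or litter, so each p-value covers no more than the spread between these libraries, which may in part be technical.

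Complex I oxidises NADH, passes its electrons to ubiquinone and pumps protons across the inner mitochondrial membrane. Its peripheral arm holds the N module, which binds NADH, and the Q module, which reduces ubiquinone. Its membrane arm holds the proton pumps, whose core subunits (the mt-Nd genes) are encoded by mitochondrial DNA and surrounded by nuclear-encoded accessory subunits. Brain tissue relies heavily on oxidative phosphorylation, and inherited complex I defects often present as neurological disease in humans.

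Dividing each library by the step between its values gave whole reads, 25136000 to 36624000 per library. Depth followed treatment: fluoxetine libraries held 32655000 to 36624000 reads, lithium libraries 25136000 to 35859000 and vehicle libraries 26592000 to 30985000, so depth and treatment cannot be told apart beyond a covariate fit. Trip12 was not lower in the libraries labelled HT, which ran from 5489 to 6953 normalized counts (median 6272, n = 30), against 4394 to 6362 in WT libraries (median 5812, n = 30). Its log2 fold change between the libraries labelled HT and WT was 0.13 ± 0.04 under fluoxetine, 0.08 ± 0.04 under lithium and 0.12 ± 0.04 under vehicle (limma estimate ± SE, adjusted p = 0.12, 0.33 and 0.25). The labels were therefore not borne out by a lower Trip12 level, and every difference between HT and WT is one between libraries so labelled. All 8 neuron markers were detected in every library, with mean levels from 5129 (Gad2) to 95260 (Camk2a) normalized counts. The summed level of 6 olfactory bulb markers ran from 271.8 to 11180 among libraries, and that of 8 striatal markers from 5528 to 19400. By the mean of the 37 nuclear members (log2 scale, each gene centred over the 60 libraries), Dixon's criterion set 3 libraries apart from their groups. They were WT fluoxetine male replicate 2 (0.43), WT vehicle female replicate 1 (-0.19) and HT lithium female replicate 4 (-0.06, with the others at 0.05 to 0.07). HT vehicle male replicate 1 was at -0.20, below the others of its group (-0.04 to 0.05), and HT fluoxetine female replicate 4 at -0.38, both without passing the criterion.

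The mitochondrially encoded members were by far the most abundant. Per kilobase of principal transcript, mt-Nd1 averaged 182380 normalized counts, mt-Nd4 144050 and mt-Nd2 112750, while mt-Nd3 averaged 6347 and mt-Nd6 3459. Among the nuclear genes Ndufa4 (6435 per kilobase), Ndufb9 (4497) and Ndufb8 (3859), the last pair accessory subunits of the distal membrane arm, were highest. Ndufa4l2 (63.7), Ndufb2 (209) and Ndufb4 (328.5) were lowest. The rank of Ndufb2, with a mean of 914 normalized counts, rests on the choice of a principal transcript of 4371 bases. That is the longest of the nuclear members, whose median is 908. The mt-Nd genes together took 1.55% to 3.39% of all reads in a library (median 2.19%) and the 37 nuclear genes 0.17% to 0.289% (median 0.226%). Libraries of 1 group varied more in the mitochondrially encoded genes, with a within-group coefficient of variation of 12.4% to 43.5% (median 14.8%), than in the nuclear genes, with 5.72% to 20.1% (median 9.36%). The widest was mt-Nd3 (43.5%), followed among the mt-Nd genes by mt-Nd4l (28.8%) and mt-Nd6 (24%).

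**Figure D1:**
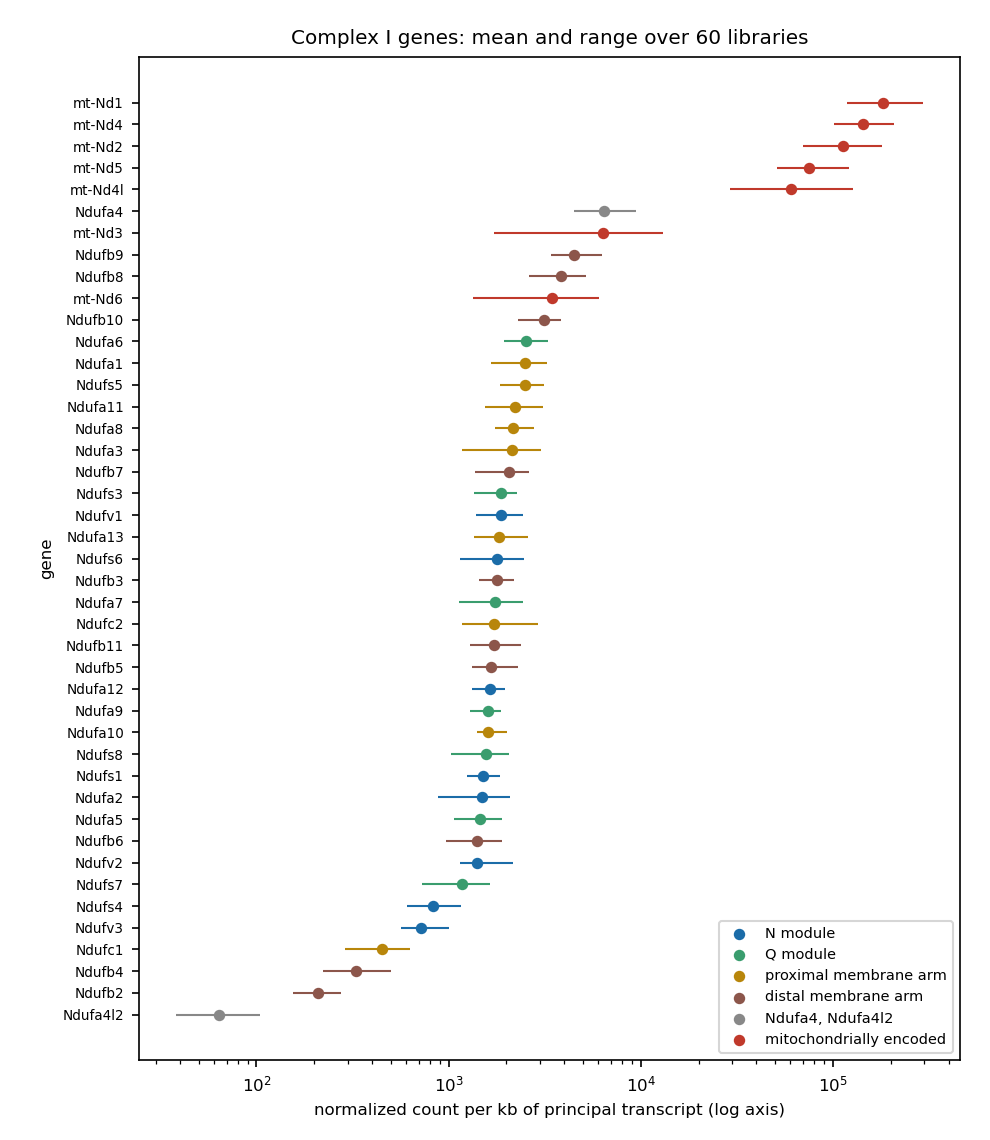
Mean (points) and range (lines) of complex I genes over 60 libraries, in normalized counts per kilobase of its principal transcript on a log axis, coloured by module. The 5 most abundant genes are mitochondrially encoded, and mt-Nd3 (6347) and mt-Nd6 (3459) lie within the range of the nuclear genes.

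Neighbouring mitochondrial genes share bases, which bears on what a read can be counted for. On GRCm38 mt-Nd4l (M, 9877 to 10173) and mt-Nd4 (M, 10167 to 11544) lie on the plus strand and overlap by 7 bases. The end of mt-Nd4l (chrM:10144-10173) and the start of mt-Nd4 (chrM:10167-10196) show the overlap, given in capitals.
mt-Nd4l: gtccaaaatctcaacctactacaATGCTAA
mt-Nd4: ATGCTAAaaattattcttccctcactaatg
The capitals hold the start codon of mt-Nd4 inside the last codons of mt-Nd4l. Both genes are known to be carried on a single transcript, so their reads near the overlap cannot be told apart. The single member on the minus strand is mt-Nd6 (M, 13552 to 14070), whose end lies opposite the last 14 bases of mt-Nd5 (M, 11742 to 13565). Whether strand was used in counting is not given in the sources used here, so reads of the facing ends of mt-Nd5 and mt-Nd6 cannot be told apart.

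With fluoxetine in HT mice the nuclear and mitochondrial genes of complex I moved apart. Of 37 nuclear members 20 fell and none rose relative to HT vehicle, whereas 5.54% of the 17804 genes tested were called lower. Of 7 mitochondrially encoded members 4 rose and none fell, whereas 4.7% of all genes were called higher. The median log2 fold change was -0.16 over the nuclear and 0.36 over the mitochondrially encoded members, beside -0.004 over all genes. Calls are limma adjusted p-values under 0.05 (Benjamini-Hochberg over all genes, sexes averaged), and each fold change is a difference of log2(normalized count + 1). In bulk tissue, fewer cells of a type and less RNA per cell cannot be told apart.

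The falls were spread over the modules. In the N module 4 of 8 members fell: Ndufv1 (-0.24), the core subunit that binds NADH and its flavin, and the accessory subunits Ndufs4 (-0.27), Ndufs6 (-0.20) and Ndufa2 (-0.36). In the Q module 6 of 8 fell, among them the core subunits Ndufs7 (-0.34) and Ndufs8 (-0.22), which hold iron-sulfur clusters, and Ndufs3 (-0.20), and the accessory subunits Ndufa7 (-0.28) and Ndufa9 (-0.14). In the proximal membrane arm 3 of 9 fell, Ndufa3 (-0.30), Ndufa1 (-0.24) and Ndufa11 (-0.23). In the distal membrane arm 6 of 10 fell, Ndufb6 and Ndufb4 (-0.30 each), Ndufb11 (-0.25), Ndufb7 (-0.22), Ndufb8 (-0.19) and Ndufb5 (-0.18). Outside these modules Ndufa4 fell by 0.34. Standard errors of the 20 falls lay between 0.04 and 0.09, and adjusted p between 0.00053 (Ndufa4) and 0.039 (Ndufb8). Between 8 and 10 of 10 HT fluoxetine libraries lay below the mean of their HT vehicle group.

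Other subunits of the same modules did not pass the test. Ndufa12, an accessory subunit of the N module, was at 0.11 ± 0.05 (adjusted p = 0.10), and Ndufa10, of the proximal arm, at 0.07 ± 0.04 (adjusted p = 0.26). Ndufv2 and Ndufs1, iron-sulfur core subunits of the N module, were at -0.03 ± 0.08 and -0.09 ± 0.05. The remaining 13 of the 17 that were not called lay between -0.16 (Ndufb9) and -0.03 (Ndufc2). By class, 5 of 7 core nuclear subunits fell (median -0.20), as did 14 of 28 accessory subunits (median -0.16).

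Ndufs3, the Q module core subunit called most firmly between the drugs in HT mice, shows the size of these shifts. In HT fluoxetine males it had 1917, 1813, 1768, 1799 and 1773 normalized counts, and in HT fluoxetine females 1697, 1609, 1688, 1416 and 1669. In HT vehicle males it had 1841, 2167, 2009, 2062 and 1876, and in HT vehicle females 1897, 2078, 1898, 1875 and 1941. The female groups did not overlap, and the male groups overlapped at fluoxetine replicate 1 and vehicle replicates 1 and 5. The fit put Ndufs3 12.8% lower under fluoxetine (adjusted p = 0.0016).

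Promoters of the nuclear members were searched for letters that factors known from respiratory genes prefer. Windows of 300 bases, 250 before and 50 after the transcript start, were taken from RefSeq (GRCm38.p6) and matched 32 of the 37 nuclear members. Both strands were searched. The YY1 letters AAGATGG stood in 7 of 32 windows (21.9%), against 7.28% of the 27025 genes with a window, measured here or not. The palindromic NRF1 letters, GCGCA followed by its reverse complement, stood in 1 (3.12%), against 1.07%, and the shorter NRF1 letters TGCGCA, which can overlap them, in 10 (31.2%), against 8.79%. The ETS letters CCGGAAG stood in 4 (12.5%), against 9.93%. The 30 bases around the single long NRF1 match and all 7 YY1 matches are printed 5′ to 3′ on the gene's strand, with the matched letters in capitals.
Ndufa11, chr17:56717692-56717721, plus strand: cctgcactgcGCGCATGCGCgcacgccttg
Ndufs4, chr13:114388045-114388074, minus strand: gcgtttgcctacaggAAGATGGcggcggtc
Ndufs6, chr13:73328433-73328462, minus strand: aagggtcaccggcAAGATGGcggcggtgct
Ndufs7, chr10:80249462-80249491, plus strand: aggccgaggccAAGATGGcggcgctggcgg
Ndufa9, chr6:126849097-126849126, minus strand: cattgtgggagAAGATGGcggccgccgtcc
Ndufa3, chr7:3617384-3617413, plus strand: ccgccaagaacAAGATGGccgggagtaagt
Ndufc1, chr3:51408915-51408944, minus strand: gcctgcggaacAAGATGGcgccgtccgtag
Ndufb8, chr19:44555393-44555422, minus strand: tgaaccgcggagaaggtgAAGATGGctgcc
All 7 YY1 matches lie 22 to 38 bases after the RefSeq start, in the written orientation, and the letters hold an ATG. Whether that ATG is the start codon was not tested. Of these 7 genes 6 fell with fluoxetine in HT mice, as did 12 of the 25 nuclear members whose window lacks the letters. A match describes letters in the window and shows no binding. The split by letters was made with the falls known, over genes that share libraries. A link between letters and falls was not tested.

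Among the mitochondrially encoded genes, the 4 that rose were mt-Nd1 (0.39 ± 0.09), which lines the ubiquinone chamber, and mt-Nd2 (0.49 ± 0.09), mt-Nd4 (0.36 ± 0.08) and mt-Nd5 (0.38 ± 0.08), the antiporter-like proton-pumping subunits. Adjusted p was 0.0040, 0.00022, 0.0024 and 0.0021 in that order, and 10 of 10 libraries lay above their vehicle mean in each. The smaller membrane subunits were not called: mt-Nd3 was at 0.04 ± 0.28, mt-Nd4l at -0.02 ± 0.17 and mt-Nd6 at -0.04 ± 0.15.

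In HT fluoxetine males mt-Nd2 had 115064, 127010, 134239, 123965 and 114017 normalized counts, and in HT fluoxetine females 138926, 156847, 135031, 187884 and 127135. In HT vehicle males it had 119189, 81638, 72615, 98835 and 100447, and in HT vehicle females 91411, 99359, 97223, 95093 and 111833. The female groups did not overlap. In males vehicle replicate 1 lay above fluoxetine replicates 1 and 5. The fit put mt-Nd2 40.3% higher under fluoxetine.

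**Figure D2:**
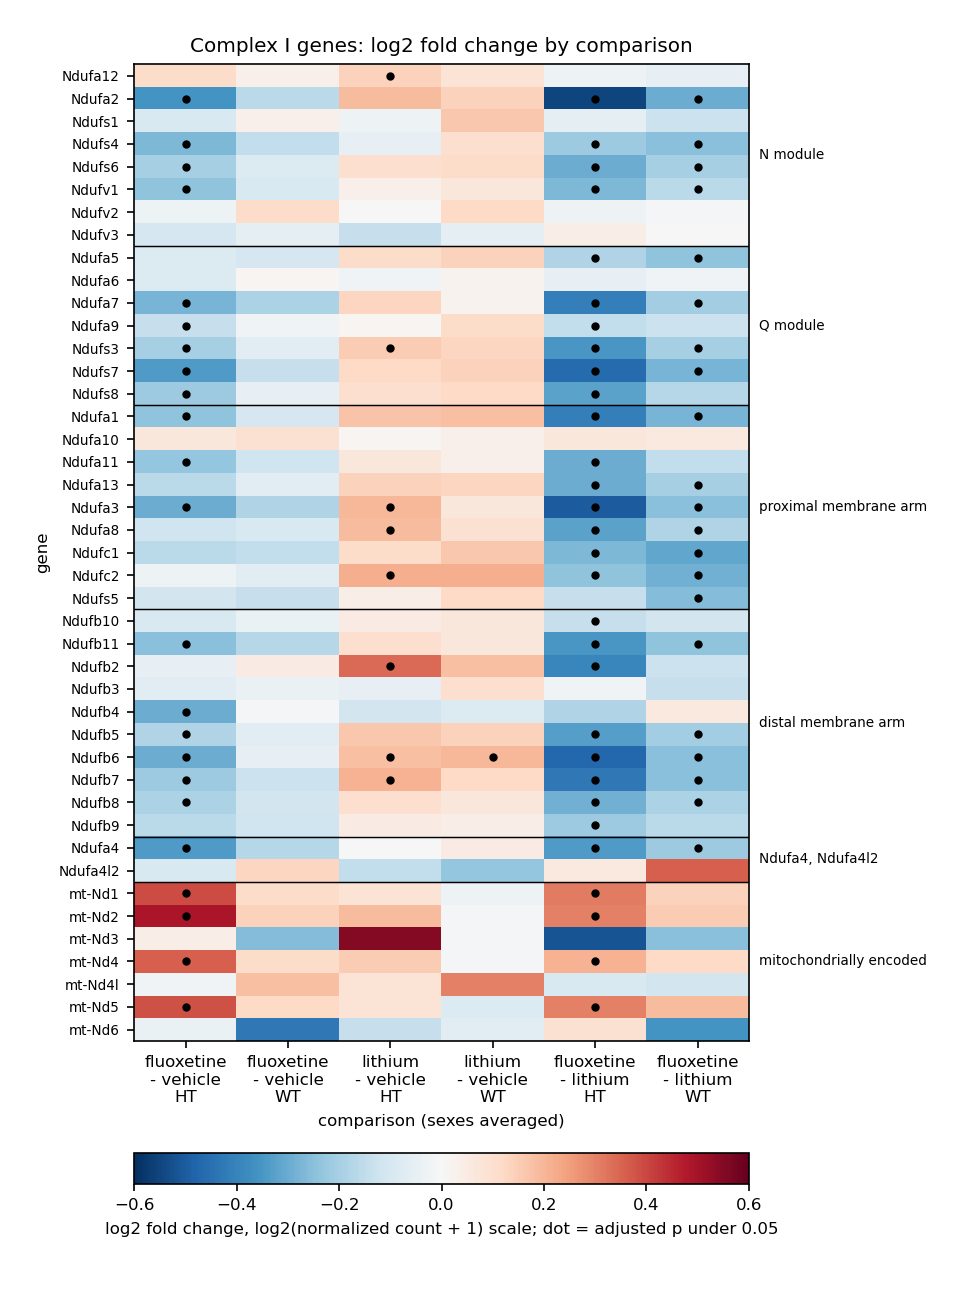
Log2 fold change of complex I genes (rows, by module) in 6 comparisons with sexes averaged (columns), as differences of log2(normalized count + 1); dots mark adjusted p under 0.05. In HT mice fluoxetine columns are mostly blue over the nuclear genes (20 of 37 fell against vehicle) and red for mt-Nd1, mt-Nd2, mt-Nd4 and mt-Nd5.

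The calls depended in part on how depth and library shape were treated. The share of all genes called in each of these fits is not given here. With depth as a covariate the medians were -0.26 over the nuclear and 0.31 over the mitochondrially encoded members. In that fit 22 nuclear members were called lower, 19 of them among the 20, while mt-Nd2 was the single mitochondrially encoded gene still called. With the length and GC slopes of each library as covariates 11 of the 20 nuclear falls were still called, no other nuclear gene was called lower, and Ndufa10 (0.12) and Ndufa12 (0.16) were called higher, with all 4 mt-Nd rises still called. Quantile normalization left 21 nuclear falls and the rises of mt-Nd1 and mt-Nd2, and lowered the median of the mitochondrially encoded members to 0.09. Leaving out single libraries gave 15 to 25 nuclear calls and always 4 mitochondrially encoded ones. Calls lost without at least 1 library were those of Ndufs8, Ndufb7, Ndufs6, Ndufb5, Ndufa9 and Ndufb8. Beside these falls, 2 of 7 endothelial and mural markers rose in HT fluoxetine libraries, Flt1 (0.44 ± 0.06) and Rgs5 (0.31 ± 0.09), where 4.7% of all genes rose. The summed level of that list ran from 8085 to 13500 normalized counts in HT fluoxetine libraries and from 7964 to 11090 in HT vehicle libraries, with no marker at 0. Summed striatal markers ran from 6146 to 14000 in HT fluoxetine libraries (median 7089) and from 5670 to 19400 in HT vehicle libraries (median 9684). Their mean centred log2 level was -0.09 ± 0.44 (SD) in HT fluoxetine males and 1.10 ± 0.92 in HT vehicle males. In females it was 0.29 ± 0.68 and -0.03 ± 0.57. The part of either list in the result was not tested.

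The length slope of a library is the change of its centred log2 levels with each doubling of gene length, taken across genes that averaged 100 normalized counts or more. Nuclear complex I genes are short, with principal transcripts of 419 bases (Ndufa1) to 4371 bases (Ndufb2) and a median of 908. Slopes ran from 0.0095 to 0.0677 in HT fluoxetine libraries, from -0.0486 to 0.0428 in HT lithium libraries and from -0.0228 to 0.0347 in HT vehicle libraries. At limits set after seeing the values, all 14 libraries with a slope over 0.02 had a nuclear mean below 0 (-0.38 to -0.01), and all 15 with a slope under -0.02 had one above 0 (0.01 to 0.43). Of 22 nuclear members with a transcript under 1000 bases 13 fell with fluoxetine in HT mice (median -0.21), as did 7 of 15 longer ones (median -0.14). Across the 37 genes the Spearman correlation of this fold change with transcript length was 0.41, with the merged exon length used for the slopes 0.16, and with GC content -0.16. The genes share their libraries, so this is a description and carries no p.

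**Figure D3:**
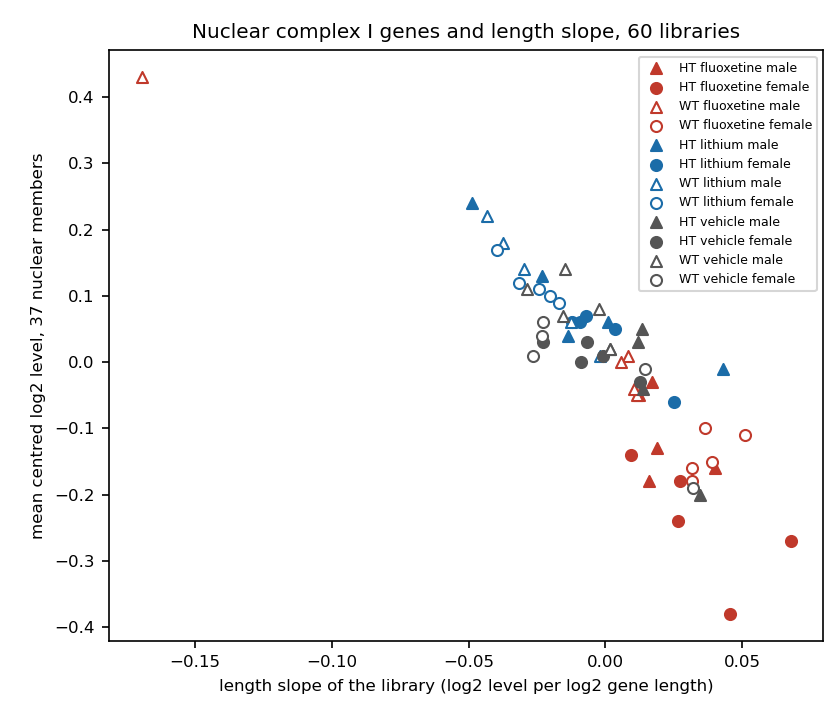
Mean centred log2 level of the 37 nuclear complex I genes (vertical axis) against the length slope of the library (horizontal axis), with 1 point per library, colour for treatment, filled for HT and open for WT, triangles for males and circles for females. Libraries with steeper positive slopes have lower nuclear means, and WT fluoxetine male replicate 2 (0.43) lies far from the rest.

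In WT mice no complex I gene was called under fluoxetine relative to vehicle, where 0.208% of all genes were called. By unadjusted p under 0.05 limma gave 10 nuclear members and 1 mitochondrially encoded member, where 10.5% of all genes had one, and DESeq2 and edgeR also called none after adjustment. The median log2 fold change was -0.07 over the nuclear members, of which 30 were negative (51.1% of all genes were), and 0.11 over the mitochondrially encoded ones. Ndufa7 was at -0.19 ± 0.06 (adjusted p = 0.21) and mt-Nd2 had 103700 to 156300 normalized counts in WT fluoxetine libraries (median 128000) and 104800 to 142800 in WT vehicle libraries (median 110800). A single library weighed on this comparison. Without WT fluoxetine male replicate 2, 7 nuclear members were called lower, in a fit whose share of all genes called is not given here. When HT vehicle male replicate 1 was left out as well, 9 were (Ndufa3, Ndufa4, Ndufa7, Ndufb11, Ndufb9, Ndufc1, Ndufs4, Ndufs5 and Ndufv1), of which 6 are among the 20 that fell in HT mice. Over all genes that fit called 342 higher and 329 lower, against 15 and 22 with every library. The overlap of its calls with the falls in HT mice was not counted over all genes.

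The difference between the genotypes in the response to fluoxetine was tested directly, and no gene of the 17804 was called by limma or edgeR, so the HT and WT responses were not shown to differ. DESeq2 called 1 gene, which was no complex I member. The median difference, HT minus WT, was -0.10 over the nuclear members (33 of 37 negative, as were 49.7% of all genes) and 0.29 over the mitochondrially encoded ones. Unadjusted p was under 0.05 for 4 nuclear members and for mt-Nd1, mt-Nd2, mt-Nd4 and mt-Nd5, as it was for 4.41% of all genes. The firmest was mt-Nd2, at 0.35 ± 0.12 (limma adjusted p = 1). Responses of males and females to fluoxetine did not differ by call either: the median difference, male minus female, was 0.17 over the nuclear members in HT mice (11 with unadjusted p under 0.05) and 0.12 in WT mice (4), with 0 called by limma, DESeq2 and edgeR. Of all genes 6.82% in HT and 6.86% in WT mice had an unadjusted p under 0.05. With the length and GC slopes of each library as covariates (defined above) these medians were 0.05 in HT and -0.06 in WT mice. Without WT fluoxetine male replicate 2 and HT vehicle male replicate 1 they were 0.12 in HT and 0.04 in WT mice.

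**Figure D4:**
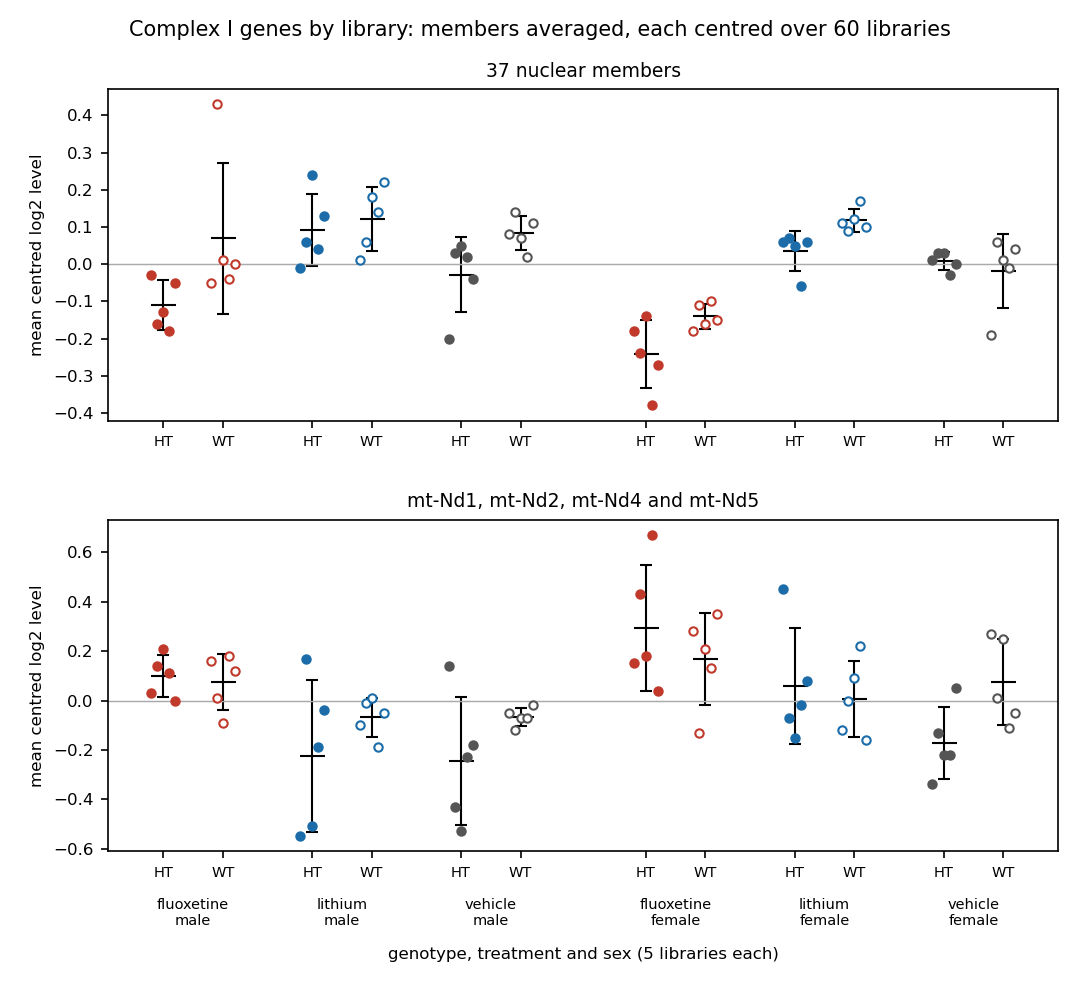
Mean centred log2 level in each library (points) of the 37 nuclear members (top) and of mt-Nd1, mt-Nd2, mt-Nd4 and mt-Nd5 (bottom), for the 12 groups of 5 libraries, with group mean and SD. HT fluoxetine females are lowest in the top panel (mean -0.24) and highest in the bottom panel (mean 0.29).

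By group, the nuclear mean was lowest in HT fluoxetine females, at -0.24 ± 0.09 (SD, n = 5), then WT fluoxetine females at -0.14 ± 0.04 and HT fluoxetine males at -0.11 ± 0.07. It was highest in WT lithium females (0.12 ± 0.03) and WT lithium males (0.12 ± 0.09). The mean of mt-Nd1, mt-Nd2, mt-Nd4 and mt-Nd5 ran from 0.29 ± 0.25 in HT fluoxetine females and 0.17 ± 0.19 in WT fluoxetine females down to -0.22 ± 0.31 in HT lithium males and -0.24 ± 0.26 in HT vehicle males. Neighbouring groups in either order differed by no more than the sum of their SDs. The nuclear minus the mitochondrially encoded mean, over all 7 mt-Nd genes, was lowest in HT fluoxetine females (-0.36 ± 0.39) and highest in HT lithium males (0.24 ± 0.32). These means rank the groups and carry no test.

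With lithium the nuclear members that were called were all higher. In HT mice 8 of 37 nuclear members rose and none fell relative to vehicle, whereas 7.44% of all genes tested were called higher. No mitochondrially encoded member was called by limma, DESeq2 or edgeR, whereas limma called 14.6% of all genes in either direction, and 1 member had an unadjusted limma p under 0.05. The median log2 fold change was 0.10 over the nuclear and 0.08 over the mitochondrially encoded members, beside -0.001 over all genes. The rises were Ndufa12 of the N module (0.14), Ndufs3 of the Q module (0.15), Ndufa8 (0.19), Ndufa3 (0.20) and Ndufc2 (0.22) of the proximal arm, and Ndufb2 (0.34), Ndufb7 (0.21) and Ndufb6 (0.18) of the distal arm. This comparison shares its vehicle libraries with the one for fluoxetine in HT mice.

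Ndufb2, a small distal arm subunit, had the firmest rise. In HT lithium males it had 991, 993, 1068, 910 and 1140 normalized counts, and in HT lithium females 1000, 1094, 1131, 985 and 1077. In HT vehicle males it had 759, 682, 779, 882 and 976, and in HT vehicle females 948, 697, 796, 893 and 842. The female groups did not overlap, and in males lithium replicate 4 lay below vehicle replicate 5. The fit put Ndufb2 26.4% higher under lithium (0.34 ± 0.06, adjusted p = 9e-05), and it was the single nuclear member still called with depth as a covariate.

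The number of nuclear genes called under lithium in HT mice was sensitive to single libraries and to scaling. It was 4 without HT vehicle female replicate 1 or 4, and 5 without HT vehicle female replicate 5, HT lithium female replicate 1, 2 or 3, or HT lithium male replicate 3 or 5. Under TMM rescaling 5 rose, and under quantile normalization 4 rose and Ndufv3 fell. Shares of all genes called in these fits are not given here. Ndufb7, Ndufa12, Ndufc2, Ndufa3 and Ndufb6 lost their calls without at least 1 library. Without HT vehicle male replicate 1 a mitochondrially encoded member was called. Marker lists moved beside these rises. With every library 7.14% of all genes were called lower and 7.44% higher with lithium in HT mice. Of 8 striatal markers 6 fell in HT lithium libraries (median -0.77). Their summed levels were 6043 to 8296 normalized counts in HT lithium and 5670 to 19400 in HT vehicle libraries. Of 6 oligodendrocyte markers 3 fell (median -0.40), with sums of 82030 to 171700 in HT lithium and 95490 to 181000 in HT vehicle libraries. Of 6 microglia markers 3 rose (median 0.16), with sums of 5742 to 8510 in HT lithium and 5028 to 8258 in HT vehicle libraries. No marker of these lists was at 0 in any library, and their part in the result was not tested.

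In WT mice Ndufb6 alone rose with lithium (0.20 ± 0.06, adjusted p = 0.049), whereas 2.46% of all genes tested were called higher. Of the nuclear members 34 were positive (49.8% of all genes were), with a median of 0.10, and 12 had an unadjusted p under 0.05 (18.6% of all genes did). The median of the mitochondrially encoded members was -0.01, with none called by limma (which called 4.57% of all genes), DESeq2 or edgeR and none with an unadjusted limma p under 0.05. In WT lithium males Ndufb6 had 905, 961, 1194, 1073 and 1137 normalized counts, and in WT lithium females 1068, 969, 1023, 1201 and 1038. In WT vehicle males it had 1056, 1091, 882, 974 and 1037, and in WT vehicle females 667, 907, 868, 825 and 917. Female groups did not overlap, male groups overlapped widely, and the call was lost without any 1 of 13 of the 20 libraries. Across single libraries left out the count ran from 0 to 4, the last without WT lithium male replicate 1. With both WT fluoxetine male replicate 2 and HT vehicle male replicate 1 left out of the fit it was 6. Shares of all genes called without these libraries are not given here. Beside the rise of Ndufb6, 3 of 7 endothelial and mural markers fell in WT lithium libraries (median -0.17), whereas 2.11% of all genes were called lower. Their sums were 7378 to 10680 normalized counts in WT lithium and 9897 to 12230 in WT vehicle libraries, and their part was not tested.

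No gene was called for a difference between HT and WT in the response to lithium by limma, DESeq2 or edgeR. The median difference was -0.02 over the nuclear members (1 with unadjusted p under 0.05, beside 5.59% of all genes) and 0.16 over the mitochondrially encoded ones (0). Between the sexes the median difference in the lithium response, male minus female, was 0.11 over the nuclear members in HT mice and -0.11 in WT mice, and no member was called by the 3 tools. Neither sign was firm: the HT median was -0.04 with the slope covariates and 0.03 without the same 2 libraries, and the WT median was -0.01 with depth as a covariate.

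Set directly against each other in HT mice, the drugs gave more complex I calls than any other of the 16 contrasts. In HT mice 27 of 37 nuclear members were lower under fluoxetine than under lithium and none was higher, whereas 12.6% of all genes tested were called lower. All 4 of mt-Nd1 (0.31), mt-Nd2 (0.30), mt-Nd4 (0.21) and mt-Nd5 (0.30) were higher under fluoxetine, whereas 12.2% of all genes were called higher. The median was -0.27 over the nuclear and 0.21 over the mitochondrially encoded members, beside -0.002 over all genes. The largest of these nuclear differences were Ndufa2 (-0.55), Ndufa3 (-0.50), Ndufb6 (-0.47), Ndufs7 (-0.46) and Ndufb7 (-0.43). By module 4 of 8 members were lower in the N module, 7 of 8 in the Q module, 7 of 9 in the proximal arm and 8 of 10 in the distal arm. Beside these, 2 of 7 endothelial and mural markers were higher in HT fluoxetine than in HT lithium libraries (median 0.17), with sums of 8085 to 13500 and 7975 to 12450 normalized counts. Of 6 oligodendrocyte and 8 striatal markers 1 each was higher under fluoxetine (medians 0.32 and 0.42), and the part of these lists in the result was not tested.

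Ndufs3 had the smallest p of all members in this comparison (-0.35 ± 0.04, adjusted p = 6.2e-08). Its HT fluoxetine values, given above, ran from 1416 to 1917 normalized counts. In HT lithium males it had 2136, 2132, 2371, 2235 and 2284, and in HT lithium females 2269, 2202, 2046, 1924 and 2184. The drugs did not overlap in either sex, nor over the 20 libraries together.

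For mt-Nd5, with the smallest p among the mitochondrially encoded genes, HT fluoxetine males had 140603, 146575, 155652, 152949 and 139998 normalized counts, and HT fluoxetine females 141179, 185823, 150691, 221858 and 142701. HT lithium males had 93476, 153881, 93059, 125896 and 125472, and HT lithium females 180282, 124868, 120443, 131310 and 144268. The drugs overlapped in both sexes, through HT lithium male replicate 2 and HT lithium female replicates 1 and 5. The fit put mt-Nd5 23.0% higher under fluoxetine (adjusted p = 0.0058). Quantile normalization kept 2 of the 4 mt-Nd calls, and the call of mt-Nd4 (adjusted p = 0.047) was lost without any 1 of 11 libraries.

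In WT mice 21 of 37 nuclear members were lower under fluoxetine than under lithium and none was higher (median -0.19), whereas 5.41% of all genes tested were called lower. No mitochondrially encoded member was called by limma, DESeq2 or edgeR (median 0.12), whereas limma called 9.76% of all genes in either direction, and 2 members had an unadjusted limma p under 0.05. No library is shared with the HT comparison, but the labels name no dam or litter, so the genotypes may share dams. Of 27 nuclear members lower in HT and 21 in WT mice, 20 were lower in both. How many of all genes were lower in both was not counted. Ndufs5, a proximal arm subunit (-0.26 ± 0.06, adjusted p = 0.0019), was the member called in WT mice and not in HT mice. Ndufc1, another small proximal arm subunit, had the smallest p in WT mice (-0.31 ± 0.06, adjusted p = 0.0013).

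In WT fluoxetine males Ndufc1 had 576, 782, 588, 502 and 516 normalized counts, and in WT fluoxetine females 423, 497, 446, 473 and 403. In WT lithium males it had 581, 575, 576, 642 and 717, and in WT lithium females 639, 708, 671, 648 and 612. The female groups did not overlap, while in males fluoxetine replicate 2 was the highest of all 10. With the length and GC slopes as covariates the nuclear count in WT mice was 13 lower and 1 higher, and in HT mice 21 lower and 2 higher. The share of all genes called in that fit is not given here. Calls of Ndufa2, Ndufa7, Ndufs6 and Ndufv1 in WT mice were lost without at least 1 library. Of 7 endothelial and mural markers 3 were higher in WT fluoxetine than in WT lithium libraries (median 0.21), whereas 4.35% of all genes were called higher. Their sums were 9546 to 12480 and 7378 to 10680 normalized counts, and their part was not tested.

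**Figure D5:**
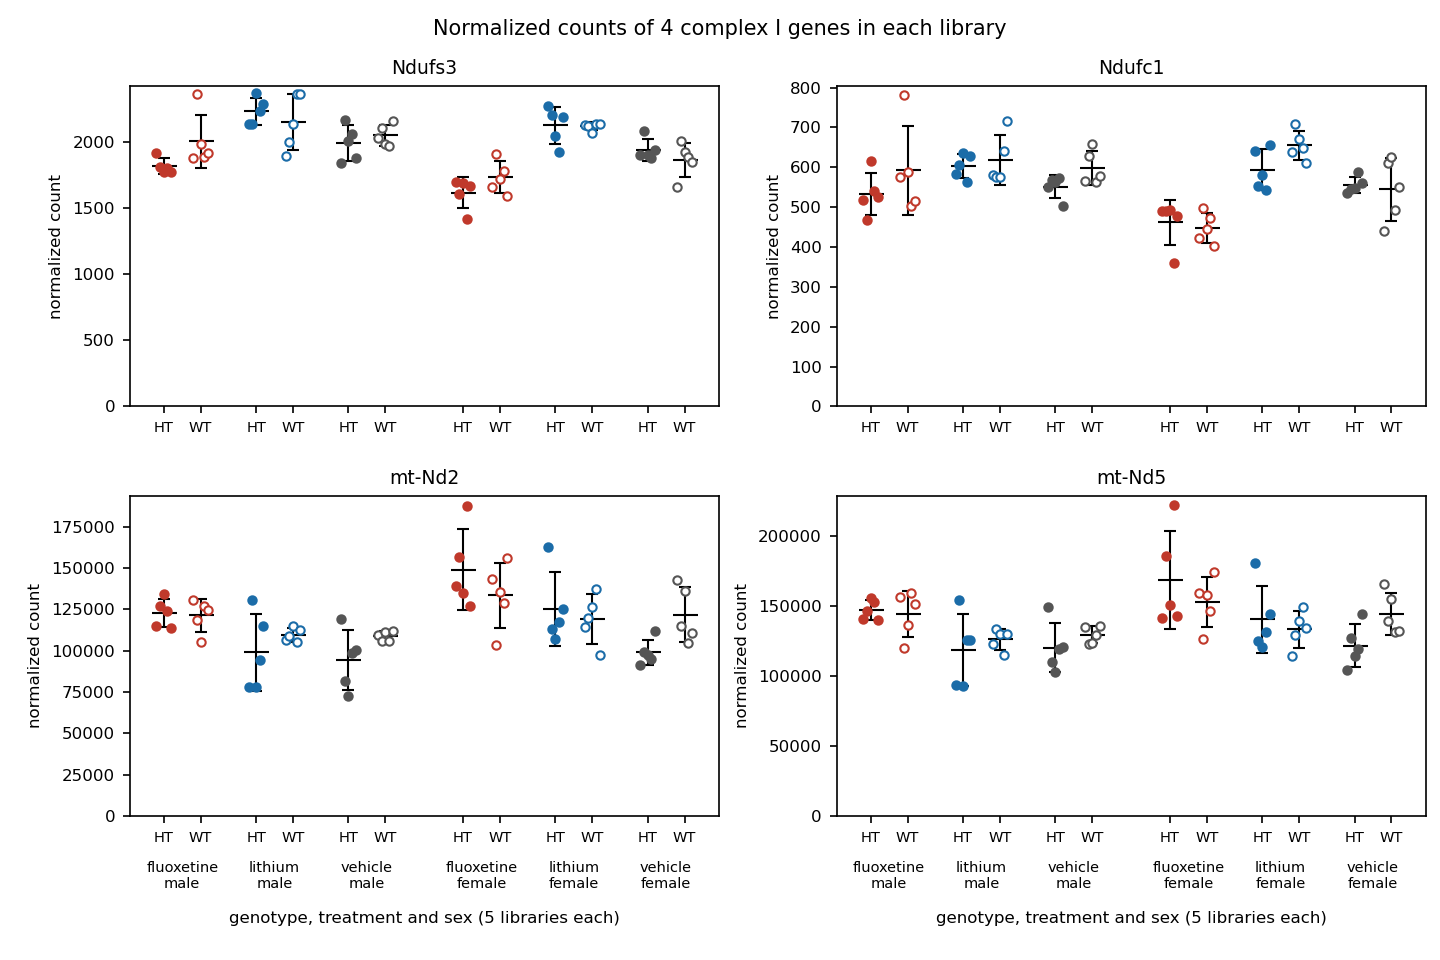
Normalized counts of Ndufs3, Ndufc1, mt-Nd2 and mt-Nd5 in each library (points) with group mean and SD (n = 5), by genotype, treatment and sex. Ndufs3 is below 1920 in all 10 HT fluoxetine libraries and above it in all 10 HT lithium libraries, while mt-Nd2 reaches 187884 in HT fluoxetine females.

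Between the genotypes no complex I gene was called by limma under any treatment. Under fluoxetine, where 0.135% of all genes tested were called, all 37 nuclear members had a negative log2 fold change of HT against WT (-0.28 to -0.00, median -0.16), whereas 48% of all genes had one. Of these 24 had an unadjusted p under 0.05, as did 11.5% of all genes, and the smallest were those of Ndufa3 (-0.28 ± 0.07, adjusted p = 0.065) and Ndufb6 (-0.25 ± 0.06, adjusted p = 0.066). DESeq2, which called 81 of the 17804 genes lower and 59 higher here, called 4 nuclear members lower (Ndufa3, Ndufb2, Ndufb6 and Ndufs6). None was called by edgeR. The limma count was 2 without WT fluoxetine male replicate 1 and 1 without WT fluoxetine male replicate 4 or HT fluoxetine male replicate 5. Shares of all genes called without these libraries are not given here. The WT arm holds WT fluoxetine male replicate 2, whose nuclear mean was 0.43. The median was -0.11 without that library and -0.07 with the slope covariates. The 37 genes share their libraries, so their common sign is not 37 separate observations.

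Under lithium, where 0.573% of all genes tested were called, the median of HT against WT was -0.05 over the nuclear members, with 7 at an unadjusted p under 0.05 (13.2% of all genes were) and none called by limma, DESeq2 or edgeR. Ndufs4, an accessory N module subunit whose loss causes Leigh syndrome in humans, had the smallest p (-0.19 ± 0.06, adjusted p = 0.099), and 1 nuclear member was called without HT lithium male replicate 3. Under vehicle, where 0.152% of all genes tested were called, the median was -0.04 over the nuclear members (2 with unadjusted p under 0.05) and -0.20 over the mitochondrially encoded ones (4), beside 8.85% of all genes, and none was called by the 3 tools. In HT vehicle libraries mt-Nd2 averaged 96760 normalized counts, against 115300 in WT vehicle libraries (-0.26 ± 0.09, adjusted p = 0.27).

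Males had slightly higher levels of a few nuclear members. Over all 6 combinations of genotype and treatment 6 nuclear members were higher in males and none was lower, whereas 0.769% of all genes tested were called higher in males. They included Ndufs3 (0.11 ± 0.02), Ndufa4 (0.16 ± 0.04), Ndufb4 (0.16 ± 0.04), Ndufb6 (0.14 ± 0.04) and Ndufb8 (0.14 ± 0.04). Of the mitochondrially encoded genes mt-Nd2 was lower in males (-0.18 ± 0.05, adjusted p = 0.048), whereas 0.416% of all genes were called lower. The median was 0.07 over the nuclear members, of which 36 were positive (48% of all genes were), and -0.13 over the mitochondrially encoded ones.

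Ndufs3 ran from 1768 to 2371 normalized counts in males (median 2002, n = 30) and from 1416 to 2269 in females (median 1903, n = 30), so the sexes overlapped widely. The fit put it 7.72% higher in males, and 26 of 30 male libraries lay above the mean of their female group. The sex difference depended on the fit: no member of either kind was called with the length and GC slopes as covariates, and with depth as a covariate 11 nuclear members were. The nuclear count was 2 when HT fluoxetine female replicate 4 was left out and 15 when HT vehicle male replicate 1 was, and single libraries moved the mitochondrially encoded count over 0 to 2. The share of all genes called in these fits is not given here. Ndufb8, Ndufb6, Ndufb4 and mt-Nd2 were among those that lost their calls without at least 1 library. Lithium males were also sequenced less deeply than lithium females (medians of 29361000 and 34490500 reads), and the part of that depth in the sex difference was tested only through the covariate.

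The 3 smaller mitochondrial genes carried the widest spread and no call in any comparison. These were chosen for display after their values were seen. In HT fluoxetine males mt-Nd3 had 987, 2488, 3034, 3241 and 1580 normalized counts, and in HT fluoxetine females 925, 1309, 991, 2260 and 1720. In HT vehicle males it had 3402, 1667, 1113, 1698 and 2074, and in HT vehicle females 2446, 2215, 598, 1067 and 1789. The groups overlapped in both sexes. In WT fluoxetine males mt-Nd6 had 1719, 1259, 1067, 1076 and 860 normalized counts, against 1517, 2260, 2371, 2357 and 2345 in WT vehicle males. Of these vehicle libraries 4 lay above every fluoxetine library of that sex. In WT fluoxetine females mt-Nd6 had 2863, 1470, 1606, 1625 and 2300, against 1969, 2031, 2153, 1601 and 1681 in WT vehicle females. By group mean mt-Nd6 was lower under fluoxetine in WT males (1196 against 2170) but not in WT females (1973 against 1887). Averaged over sexes its log2 fold change in WT mice was -0.43 ± 0.15 (unadjusted p = 0.0074, adjusted p = 0.26). The widest library for mt-Nd4l was HT fluoxetine female replicate 4, with 37596, in a group whose other libraries had 18943, 21481, 14767 and 8662.

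The other mitochondrially encoded protein genes gave 2 rises of 6 with fluoxetine in HT mice, where 4.7% of all genes rose. These were mt-Cytb, the mitochondrial subunit of complex III (0.27 ± 0.08, adjusted p = 0.016), and mt-Atp8, of ATP synthase (0.18 ± 0.05, adjusted p = 0.026). The complex IV genes were not called, with mt-Co1 at 0.20 ± 0.08, mt-Co2 at -0.55 ± 0.25 and mt-Co3 at 0.72 ± 0.33. None of the 6 was called in WT mice under fluoxetine or under lithium in either genotype by limma, and 2 had an unadjusted p under 0.05 with lithium in HT mice (28.4% of all genes did).

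Of 16 complex I assembly factors, which build the complex and are not part of it, 2 fell with fluoxetine in HT mice, Ndufaf3 (-0.16 ± 0.05) and Tmem186 (-0.13 ± 0.04), with a median of -0.05, where 5.54% of all genes fell. With lithium Ndufaf4 (0.32 ± 0.08) and Tmem70 (0.19 ± 0.06) rose in HT mice, and Ndufaf4 rose in WT mice (0.38 ± 0.08), where 7.44% of all genes rose in HT and 2.46% in WT mice. Against lithium 3 were lower under fluoxetine in each genotype, beside 12.6% of all genes in HT and 5.41% in WT mice. Ndufab1, the mitochondrial acyl carrier protein that is also a complex I subunit, does not meet the name rule. It rose with lithium in both genotypes (0.20 ± 0.05 in HT and 0.18 ± 0.05 in WT mice) and was at 0.06 with fluoxetine in HT mice.

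Among 8 regulators of mitochondrial biogenesis 2 fell with fluoxetine in HT mice, beside 5.54% of all genes. They were Esrra (-0.18 ± 0.06), which encodes the estrogen-related receptor alpha, and Nrf1 (-0.17 ± 0.05), which encodes nuclear respiratory factor 1. Esrra rose with lithium in HT mice (0.23 ± 0.06) and was lower under fluoxetine than lithium in both genotypes (-0.42 ± 0.06 in HT and -0.24 ± 0.06 in WT mice). Of 21 genes for mitochondrial DNA transcription, replication and RNA stability 1 fell with fluoxetine in HT mice, Slirp, whose product stabilises mitochondrial messenger RNA (-0.23 ± 0.08), a share near that of all genes. With lithium in HT mice 5 of the 21 rose and 3 fell, beside 7.44% and 7.14% of all genes, among them Mterf3 (0.30 ± 0.08), Polrmt (0.26 ± 0.07), the mitochondrial RNA polymerase, Polg (0.14 ± 0.04), the mitochondrial DNA polymerase, and Mterf2 (-0.29 ± 0.07).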

How the data were processed

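Libraries of messenger RNA came from a strand-marking kit (TruSeq Stranded mRNA, per the labels' protocols). The table deposited by the authors holds a signal per gene and library, namely DESeq2 normalized counts (read counts divided by a size factor for each library). The tools named per the submitters' processing notes are DESeq2 1.19.11, Salmon 0.11.2 and R 3.6.0, and the build is GRCm38. The annotation, the strand setting and the gene filter are not given in the sources used here. All 60 columns were used, and 100% of values were whole reads within 0.01, with size factors of 0.85 to 1.25. Same-group libraries differed by a chi-square of at least 5.17 per degree of freedom, so none was counted as a repeat.

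The main test was limma-trend 3.58.1 (R 4.3.3) on log2(normalized count + 1), with 12 group means over 60 libraries and 48 residual degrees of freedom. Genes needed 10 normalized counts in 5 libraries: 17804 were tested, 284 were removed and all 44 members passed. In 16 contrasts drug and genotype effects were averaged over the sexes, and p-values are two-sided, adjusted by Benjamini-Hochberg over all genes tested and called under 0.05. The median SE of an averaged drug contrast was 0.074. The fit was also run on simulated counts, in which genes were drawn independently and libraries had no length or GC slopes. That run cannot show how such slopes affect the calls. DESeq2 1.42.0 and edgeR 4.0.16 on the recovered reads, other scalings, filters, pseudocounts, covariates and left-out libraries were alternatives.

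Members, lists, modules and the 2 libraries doubted were chosen with earlier results of these data known. The naming rule took every called mitochondrially encoded member, up to 20 called nuclear members by smallest p and up to 4 genes from each other list. Values of every library are given for the member with the smallest p in each contrast, with a nuclear and a mitochondrially encoded one in the contrast with most calls. Single values of 1 nuclear member are not reported here, though counts include it. The text also names members outside that rule, after their values were seen. Lengths and gene names came from GENCODE M21 on GRCm38, in which 18077 of 18088 IDs matched. Depths give counting precision only.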

Additional observations from a re-analysis of the deposited data

Results flagged for a closer look

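In 144 sets of 5 libraries (12 groups, 9 genes and 3 summaries over members) the library farthest from the rest was compared with Dixon's critical value, and 10 sets passed it. Chance flags about 1 in 20 such sets, and the sets share libraries and genes. The mean of the nuclear members was 0.43 in WT fluoxetine male replicate 2, against -0.05 to 0.01 in the other libraries of its group. It was -0.06 in HT lithium female replicate 4, against 0.05 to 0.07, and -0.19 in WT vehicle female replicate 1, against -0.01 to 0.06.

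WT fluoxetine male replicate 2 was also far from its group in 3 single genes. Ndufb2 had 1209 normalized counts there, against 944 to 967, Ndufb6 had 1248, against 859 to 953, and Ndufs3 had 2359, against 1878 to 1981. Its length slope was -0.1694 and its GC slope 1.4963. The other doubted library, HT vehicle male replicate 1, had a GC slope of -2.8461, against 0.1805 to 0.8497 in the others of its group. It differed from those by a chi-square of 42.71 to 50.52 per degree of freedom, against 7.22 to 15.09 among them. The part of the slopes in the values of either library was not tested apart from the covariate fit.

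In other libraries Ndufs3 had 2065 in WT lithium female replicate 3, against 2117 to 2136, a set with a narrow range. Ndufc1 had 361 in HT fluoxetine female replicate 4, against 477 to 492. Among mitochondrially encoded genes mt-Nd3 had 4531 in WT fluoxetine male replicate 1, against 1404 to 1941, and mt-Nd6 had 1517 in WT vehicle male replicate 1, against 2260 to 2371.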

How the results depend on the processing

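Of 84 named calls 62 held with each library left out, and none changed sign under any alternative run. The number of nuclear members called differed by over 1.5 times as follows. With lithium in HT mice (8) it was 5 under TMM rescaling, 5 under quantile normalization and 1 with a depth covariate. With lithium in WT mice (1) it was 2 under quantile normalization, under a filter at 50, by DESeq2 and with slope covariates, 3 with only the libraries compared, and 0 by edgeR and with a depth covariate. With fluoxetine in HT mice (20) it was 13 with slope covariates. Between HT and WT mice it was 4 by DESeq2 under fluoxetine and 1 with slope covariates under lithium (0 in both). Between the sexes (6) it was 10 by DESeq2, 11 with a depth covariate and 0 with slope covariates. Of the mitochondrially encoded members called with fluoxetine against vehicle in HT mice (4), 2 remained under quantile normalization and 1 with a depth covariate. Against lithium (4) 2 remained under quantile normalization, and between the sexes (1) it was 2 by DESeq2 and 0 with quantile normalization, depth or slope covariates. Without both doubted libraries the nuclear counts were 27 for fluoxetine in HT mice, 9 in WT mice, 6 for lithium in WT mice, 11 between the sexes and 1 between HT and WT mice under lithium. The mitochondrially encoded ones were then 1 for lithium in HT mice, 1 for fluoxetine against lithium in WT mice and 2 between the sexes. Calls over all genes also change between fits: DESeq2 called 407 genes higher in males, against 137 by limma. For most fits the share of all genes is not given here, so a changed count cannot be read as particular to complex I. The cause of these changes was not tested.

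Leaving out single libraries gave nuclear counts of 15 to 25 for fluoxetine in HT and 0 to 7 in WT mice, 4 to 8 for lithium in HT and 0 to 4 in WT mice. They were 25 to 29 and 16 to 29 between the drugs in HT and WT mice, 0 to 2 and 0 to 1 between HT and WT mice under fluoxetine and lithium, and 2 to 15 between the sexes. The mitochondrially encoded counts were 4 to 4 for fluoxetine and 0 to 1 for lithium in HT mice, 3 to 4 between the drugs in HT mice and 0 to 2 between the sexes. All other comparisons stayed at 0. Shares of all genes in these fits are not given here either.

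Same-numbered libraries of different groups did not deviate together (median r -0.00818, range -0.379 to 0.491, 70 of 330 pairs over 0.1), and 12 of 60 libraries correlated best with their own number, so the numbers were not taken as pairs. With the replicate number as a replicate block 21 nuclear and 4 mitochondrially encoded members were called for fluoxetine in HT mice, 8 nuclear for lithium in HT mice, and 28 and 23 between the drugs in HT and WT mice. The share of all genes called in that fit is not given here.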
